A study of Saccharomyces cerevisiae with 22 samples.

Results

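The 40 genes described here encode the machinery of RNA polymerase I and RNA polymerase III in Saccharomyces cerevisiae. They were taken by name from a list of polymerase subunits, basal initiation factors and the repressor Maf1, and all 40 had a probe among the 5315 genes with a symbol on the arrays. Of these, 23 encode subunits (7 specific to polymerase I, 10 specific to polymerase III, 2 shared by both and 4 shared by all nuclear polymerases), 16 encode initiation factors, and MAF1 stands alone. All conditions used the wild-type laboratory strain BY4742, which is haploid and of mating type alpha, in synthetic complete medium with glucose. For heat shock, cells from a 30 °C culture were pelleted, re-suspended in medium at 37 °C and harvested after 5, 15, 30, 45 or 60 min. For cold shock, cells from a 37 °C culture were pelleted, re-suspended at 30 °C and harvested after 0, 5, 15, 30, 45 or 60 min, so the 0 min sample stands for growth at 37 °C. Each of the 11 conditions was hybridised on 2 arrays, called a (sample in Cy3) and b (sample in Cy5), against a common reference RNA from a single untreated culture of the same strain. That reference was grown in a plate reader, so in a comparison of heat shock with it, the temperature, the pelleting, the fresh medium and the culture vessel cannot be told apart.

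RNA polymerase I transcribes the ribosomal DNA repeats into the precursor of the large ribosomal RNAs, and RNA polymerase III makes transfer RNAs and 5S ribosomal RNA. Both share some subunits, and each is brought to its genes by factors of its own: the upstream activating factor, the core factor and Rrn3 for polymerase I, and TFIIIC and TFIIIB for polymerase III. Yeast is known to lower ribosome production under stress, and many genes for polymerase I and III subunits belong to the large set of ribosome biogenesis genes. The mRNAs measured here are themselves products of RNA polymerase II.

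Values are log2 ratios of sample over reference, and a gene was called lower or higher when limma's test gave a Benjamini-Hochberg adjusted p below 0.05 over all probes and the ratio exceeded 1.7-fold. Every member was read by 1 probe in 2 spots, all 40 were above background on all 22 arrays and none reached the saturation limit. Over all genes the correlation of arrays a and b of a condition lay between 0.939 and 0.991, and the largest difference between a and b for any member was 0.387. The median of all genes lay between -0.00743 and 0.0134 on the 22 arrays, because each array was centred by its normalization. Alpha-specific markers MF(ALPHA)1, MF(ALPHA)2 and STE3 were above background on 22 arrays, with signals of 215 to 13910. Of the a-specific markers, STE2 had signals of 115 to 261, MFA1 65.7 to 112 and MFA2 56.0 to 79.8, and these too were above background on 22, 22 and 21 arrays.

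Most polymerase subunit mRNAs were lower than in the reference by 5 or 15 min of heat shock. Of the 16 initiation factor mRNAs, 15 were not called lower or higher against the reference at any heat shock time. Their 1 call does not set the factors apart from genes in general, of which 12.3% were called lower at 1 or more times. At 5 min, 15 of 40 members were called lower, of which 14 were among the 23 subunits and 1 among the 16 factors, where 6.02% of all genes were called lower. At 15 min there were 16, 15 subunits and 1 factor, against 9.33% of all genes. At 30 min the count was 9, all subunits, against 7.02%. No member was called lower at 45 min, where 1.83% of all genes were, or at 60 min, where 1.41% were, although 33 and 32 of the 40 members, in either direction, had an unadjusted limma p under 0.05 at these times. The share of all genes on that unadjusted rule is not given here, so these counts do not set the members apart. Over the 5 times, 19 of 23 subunits and 1 of 16 factors (RRN3) were called lower at least once, as were 12.3% of all genes. None of the 40 was called higher in heat shock, where 6.87% of all genes were called higher at 5 min and 8.92% at 15 min.

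**Figure D1:**
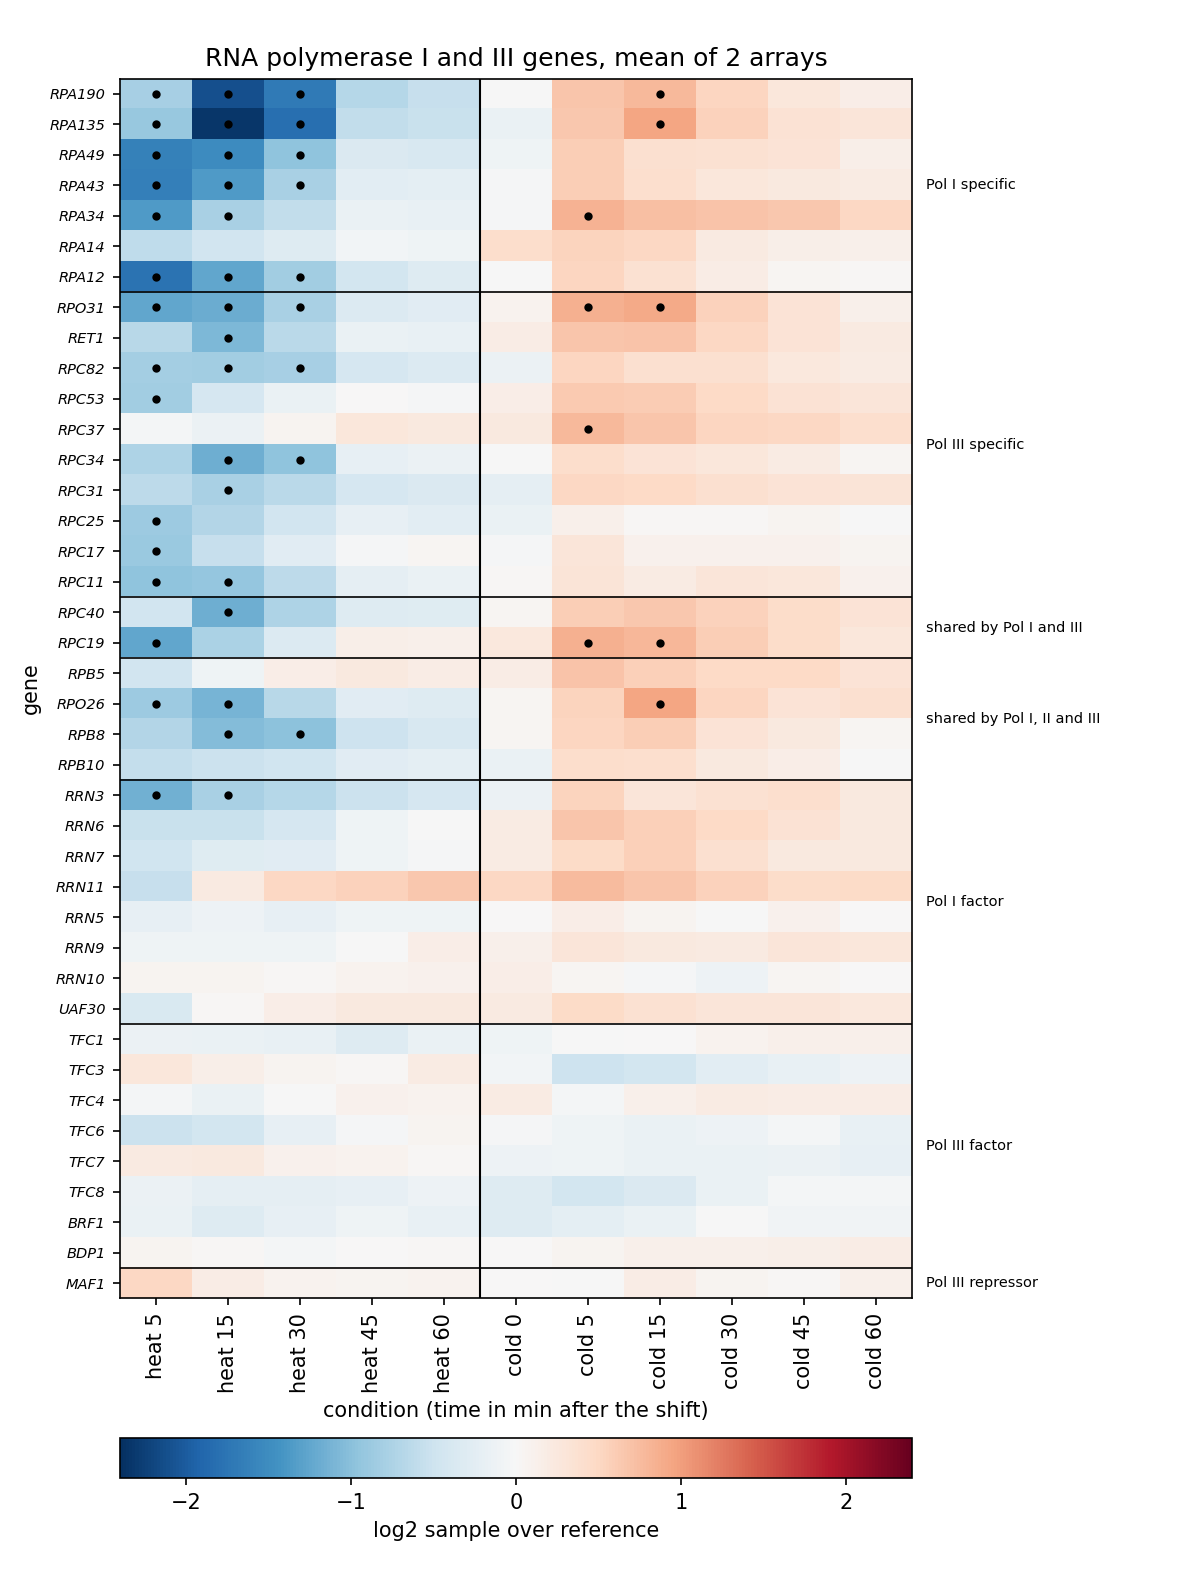
Mean log2 ratio of sample over reference (2 arrays) for the 40 members, in rows by class, in the 5 heat shock and 6 cold shock conditions, in columns with the time in min after the shift. Blue is lower and red higher than the reference, and a black dot marks a call (adjusted p below 0.05 and over 1.7-fold): the dots in heat shock lie almost all in the subunit rows at 5, 15 and 30 min, as the counts of 15, 16 and 9 give.

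The genes specific to RNA polymerase I fell farthest. Their median was -1.37 at 5 min and -1.36 at 15 min, and 6 of the 7 were called lower at each of these times, RPA14 being the exception. RPA190 encodes the largest subunit, which with Rpa135 forms the active site. On arrays a and b its values were -0.88 and -0.73 at 5 min, -2.15 and -2.07 at 15 min, -1.79 and -1.59 at 30 min, -0.66 and -0.71 at 45 min and -0.66 and -0.44 at 60 min. The 15 and 30 min arrays lay far below all others, and the 45 and 60 min arrays were still under the reference. RPA135, for the second largest subunit, ran the same course, with -0.92 and -0.89 at 5 min, -2.36 and -2.30 at 15 min, -1.89 and -1.73 at 30 min, -0.60 and -0.57 at 45 min and -0.61 and -0.45 at 60 min. At 15 min RPA190 was 4.32-fold lower (log2 -2.11 ± 0.05 SE, n = 2 arrays, limma adjusted p = 9.1e-16) and RPA135 5.03-fold lower (-2.33 ± 0.04 SE, n = 2, limma adjusted p = 2.9e-17).

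The smaller polymerase I subunits were low already at 5 min. RPA49, whose product pairs with Rpa34 in initiation and elongation, had -1.56 and -1.68 at 5 min, -1.56 and -1.46 at 15 min, -0.99 and -0.96 at 30 min, -0.35 and -0.36 at 45 min and -0.43 and -0.36 at 60 min. The 5 and 15 min arrays overlapped and lay below all later ones. RPA12, for the subunit that carries RNA cleavage activity, was 3.42-fold lower at 5 min (-1.77 ± 0.02 SE, n = 2, limma adjusted p = 2.5e-17) and 2.37-fold lower at 15 min. RPA43, which encodes the stalk subunit that binds Rrn3, was 3.12-fold lower at 5 min and 2.56-fold lower at 15 min. RPA34 was called lower at 5 min (-1.37) and, just past the fold threshold, at 15 min (-0.77). It lost the 15 min call with a single curve for the whole array (-0.56), with no curve (-0.58) or with a curve on external control spots (-0.74), and without array a of that time. RPA14, the partner of Rpa43 in the stalk, was -0.71 and -0.52 at 5 min and -0.42 and -0.51 at 15 min, and was not called at any heat shock time against the reference.

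Genes specific to RNA polymerase III were lower by less. Their median was -0.82 at 5 min and -0.80 at 15 min, with 6 of 10 called at each of these times and 3 at 30 min. RPO31, for the largest subunit, had -1.26 and -1.25 at 5 min, -1.23 and -1.14 at 15 min, -0.79 and -0.77 at 30 min, -0.28 and -0.37 at 45 min and -0.30 and -0.24 at 60 min. Its arrays at 5 and 15 min were alike, unlike those of its polymerase I counterpart RPA190. RET1, for the second largest subunit, was -0.71 and -0.61 at 5 min, short of the fold threshold, and -1.10 and -1.06 at 15 min, with a mean of -1.08 (limma adjusted p = 3.0e-15, n = 2). Its later arrays were -0.68 and -0.63 at 30 min, -0.15 and -0.17 at 45 min and -0.21 and -0.13 at 60 min.

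RPC34 belongs with RPC82 and RPC31 to the initiation trimer, whose Rpc34 protein contacts TFIIIB. RPC34 values were -0.85 and -0.62 at 5 min, -1.18 and -1.15 at 15 min, -1.02 and -0.90 at 30 min, -0.22 and -0.19 at 45 min and -0.19 and -0.09 at 60 min. It was called at 15 and 30 min, the 30 min call being lost with external controls (-0.72). RPC82 was called at 5, 15 and 30 min (-0.82, -0.83 and -0.80), but not with external controls at 5 and 30 min (-0.60 and -0.56) or with no curve at 15 and 30 min (-0.76 and -0.65). RPC31 was called at 15 min alone (-0.77), a call lost without array a of that time and with normexp background correction (-0.76). The stalk genes RPC25 and RPC17 were called at 5 min (-0.87 and -0.88) but not with external controls (-0.69 and -0.70), and were at -0.70 and -0.55 at 15 min. RPC11, for the cleavage and termination subunit, was called at 5 and 15 min (-0.97 and -0.93).

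RPC53 and RPC37, whose products form a heterodimer that acts in termination and re-initiation, stood apart from each other. RPC53 was called lower at 5 min (-0.83 on both arrays), though not with external controls (-0.65), and RPC37 was -0.02 and -0.07 at 5 min and -0.15 and -0.12 at 15 min, the value closest to 0 at 5 min of all 23 subunits. RPC37 was not called lower at any time.

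**Figure D2:**
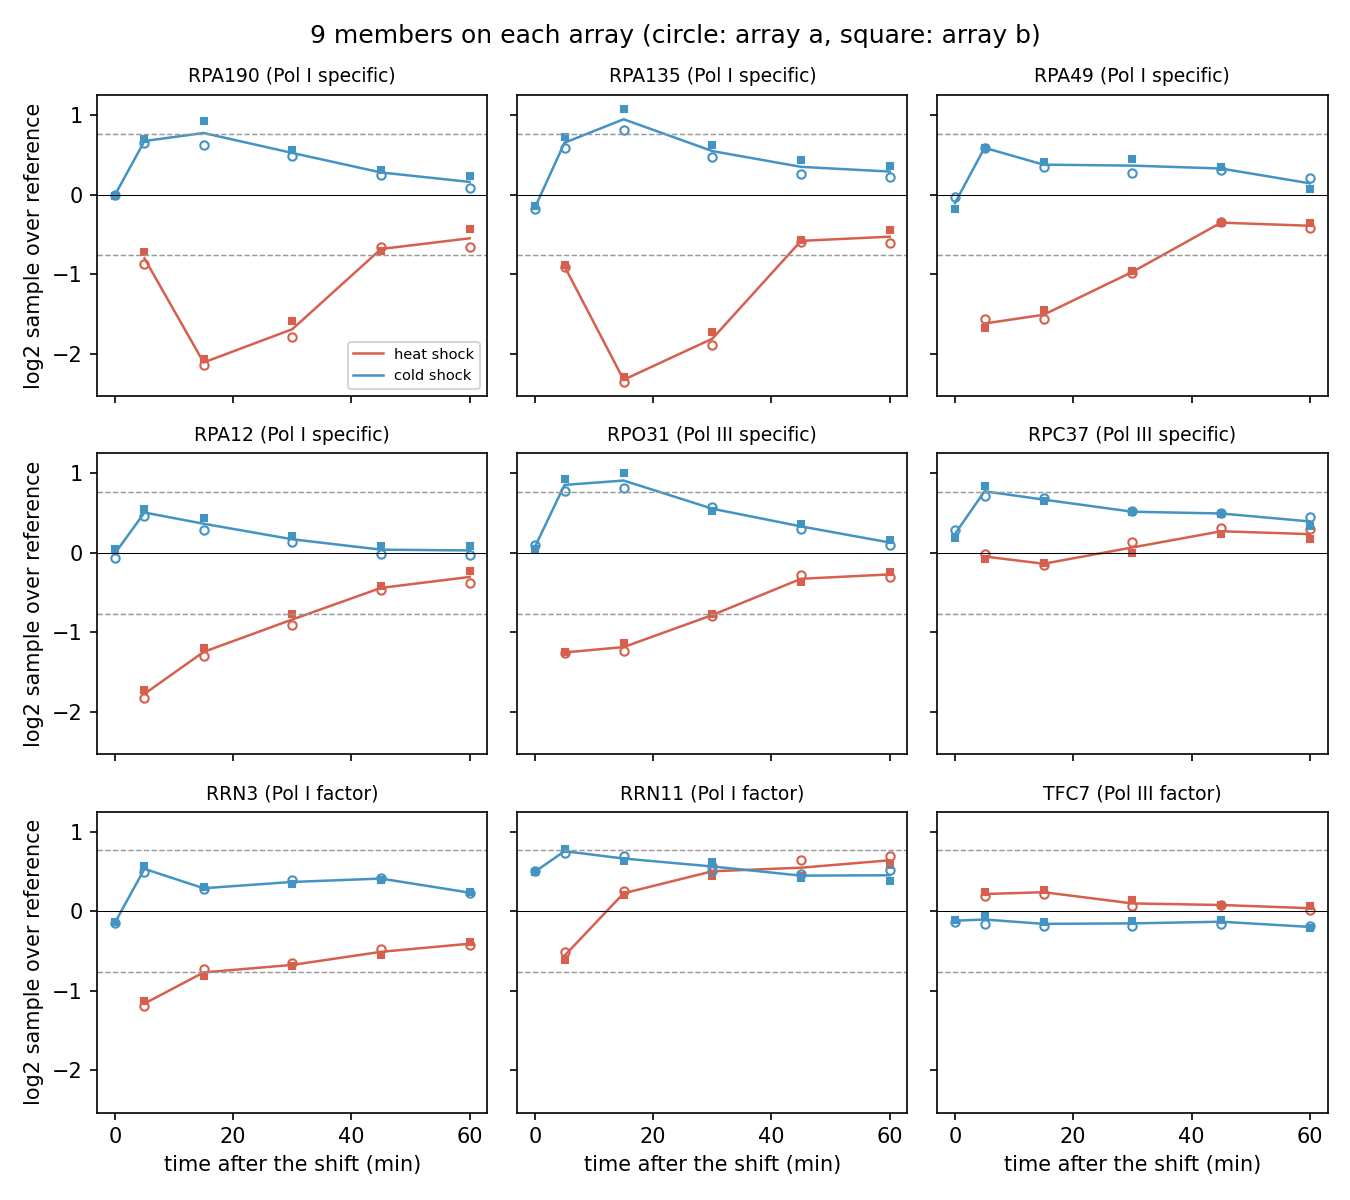
Log2 ratio of sample over reference for 9 members, against time in min after the shift, in heat shock (red) and cold shock (blue). Circles are array a, squares array b and lines their mean, and the dashed lines mark 1.7-fold: RPA190 and RPA135 have their lowest values at 15 min (-2.11 and -2.33), RPA49, RPA12 and RPO31 at 5 min, and RPC37 and TFC7 stay within the dashed lines throughout heat shock.

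The shared subunits were mixed. RPC40 and RPC19 encode the pair on which assembly of both polymerases begins. RPC40 had -0.51 and -0.43 at 5 min and -1.23 and -1.13 at 15 min, so it was called lower at 15 min only (2.27-fold, limma adjusted p = 3.1e-14, n = 2). Later arrays were -0.80 and -0.69 at 30 min, -0.25 and -0.36 at 45 min and -0.32 and -0.27 at 60 min. RPC19 showed the other order, with -1.11 and -1.38 at 5 min and -0.64 and -0.89 at 15 min, then -0.25 and -0.41 at 30 min, 0.23 and 0.05 at 45 min and 0.19 and 0.04 at 60 min. It was called at 5 min (2.37-fold, limma adjusted p = 3.9e-14, n = 2), and its 15 min mean of -0.76 lay at the edge of the fold threshold: it would be called with external controls (-0.87), with the authors' deposited ratios (-0.78) and without array a of that time (-0.78).

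Among the subunits common to all nuclear polymerases, 2 of 4 were called at 15 min. RPO26 had -0.84 and -0.89 at 5 min and -1.15 and -1.09 at 15 min and was called at both, with -0.74 and -0.60 at 30 min and arrays between -0.34 and -0.21 after that. Its 5 min call was lost with a single curve for the whole array (-0.72), no curve (-0.75) and external controls (-0.75). RPB8 had -0.74 and -0.68 at 5 min, -1.08 and -0.99 at 15 min and -1.11 and -0.87 at 30 min and was called at 15 and 30 min. Its arrays at 45 and 60 min lay between -0.57 and -0.36. RPB10 stayed between -0.59 and -0.20 on the 10 heat shock arrays and was never called, nor was RPB5, with means of -0.46 at 5 min and -0.11 at 15 min. For comparison, 0 of 7 genes for subunits specific to RNA polymerase II were called lower or higher in any condition, with medians of -0.09 at 5 min and -0.02 at 15 min. Only 12.3% of all genes were called lower at 1 or more heat shock times, so 0 of 7 does not stand out.

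All 23 subunit genes had their lowest heat shock value at 5 min (13 genes) or 15 min (10 genes). The arrays of these times were therefore compared directly, a comparison chosen after the time courses had been seen. RPA135 was lower at 15 than at 5 min by 2.69-fold (log2 -1.43 ± 0.05 SE, limma adjusted p = 1.2e-11) and RPA190 by 2.48-fold (-1.31 ± 0.07 SE, limma adjusted p = 4.6e-10), and they were the 2 members called lower, where 2.71% of all genes were. RPC40 followed at -0.71, short of the fold threshold. RRN11 was the 1 member called higher at 15 than at 5 min (0.79 ± 0.06 SE), where 2.13% of all genes were. Its call was lost with external controls (0.66) and with normexp background correction (0.76). RPA34 (0.59), RPA12 (0.53) and RPC19 (0.48) had positive differences inside the fold threshold. Over both times together, 11 members were called lower at 5 and 15 min, 4 at 5 min only (RPC53, RPC25, RPC17, RPC19) and 5 at 15 min only (RET1, RPC34, RPC31, RPC40, RPB8). The same split over all genes is not given here. Some of these genes lay near the fold threshold at the other time: RPC19 was -0.76 at 15 min, and RPC34 -0.73 and RPB8 -0.71 at 5 min. Part of the split therefore follows the threshold.

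**Figure D3:**
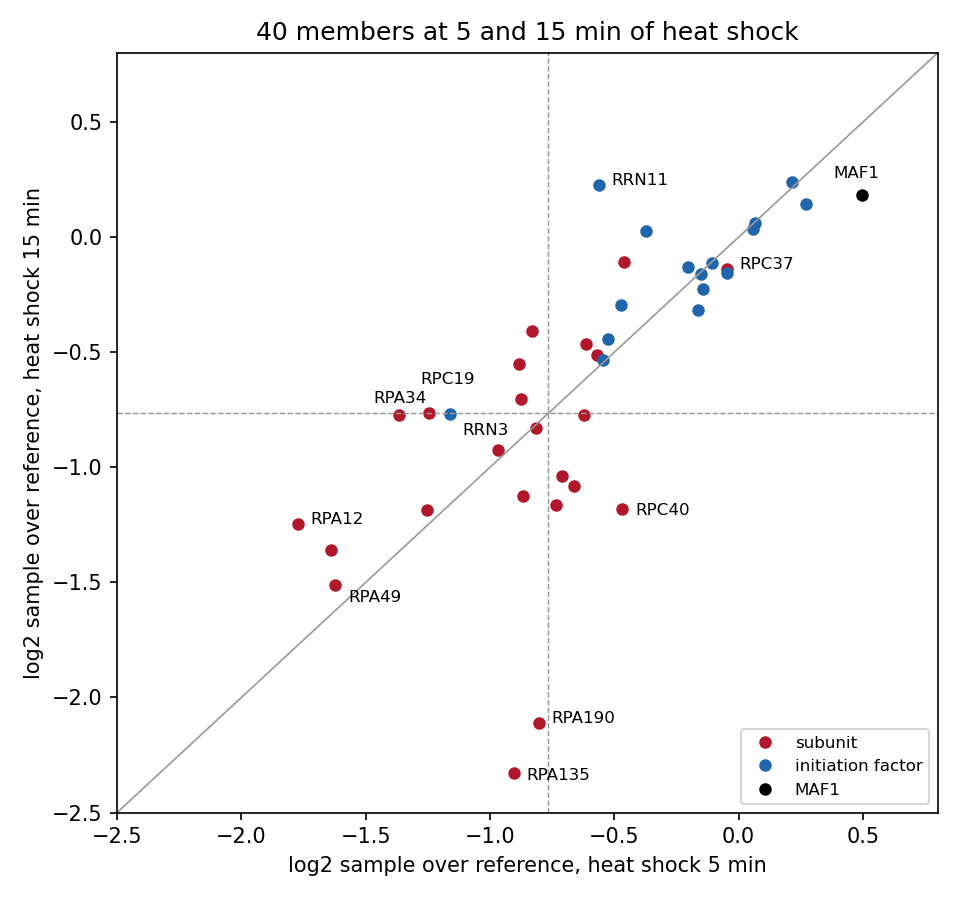
Log2 ratio of sample over reference at 15 min of heat shock (vertical) against 5 min (horizontal) for the 40 members, means of 2 arrays, with subunits in red, initiation factors in blue and MAF1 in black. The solid line marks equal values and the dashed lines 1.7-fold lower. RPA190 and RPA135 lie far below the solid line (-2.11 and -2.33 at 15 min), RPA12 and RPA34 above it. All factors except RRN3 lie inside both dashed lines.

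The initiation factors moved less than the subunits. Their median was -0.16 at 5 min, -0.14 at 15 min and -0.14 at 30 min. The 2 kinds of factor differed at 5 min, with a median of -0.42 for polymerase I factors and -0.10 for polymerase III factors. At 15 min these medians were -0.12 and -0.16. RRN3, whose product makes RNA polymerase I competent to initiate and is itself a target of nutrient signalling, was the 1 factor called. It had -1.20 and -1.12 at 5 min, -0.73 and -0.81 at 15 min, -0.66 and -0.69 at 30 min, -0.47 and -0.55 at 45 min and -0.43 and -0.39 at 60 min. The deepest arrays were those of 5 min (2.24-fold lower, limma adjusted p = 8.1e-15, n = 2), and the 60 min arrays were still the lowest of any factor at that time. The 15 min call (-0.77) was just past the fold threshold and was lost with the deposited ratios (-0.76), with normexp (-0.76) and without array b of that time (-0.73).

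Among the core factor genes, RRN6 was -0.54 on both arrays at 5 min and -0.50 and -0.56 at 15 min, and RRN7, a relative of TFIIB, was -0.50 and -0.44 at 5 min and -0.30 and -0.29 at 15 min. Neither was called, and from 30 min on the arrays of RRN6 went from -0.44 to 0.00 and those of RRN7 from -0.29 to 0.02. RRN11, the remaining core factor gene, went from -0.51 and -0.61 at 5 min to 0.25 and 0.20 at 15 min and 0.70 and 0.58 at 60 min, with 0.57 and 0.44 at 30 min and 0.65 and 0.44 at 45 min between, and was not called against the reference at any time. With external controls it was called higher at 45 min (0.85), 60 min (0.92) and in the 37 °C culture (0.78). The upstream activating factor genes RRN5, RRN9 and RRN10 lay between -0.20 and 0.07 at 5 and 15 min, and UAF30 was -0.37 at 5 min and 0.03 at 15 min.

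None of the 8 polymerase III factor genes was called in any condition. Only 12.3% of all genes were called lower at 1 or more heat shock times, so a set of 8 without a call does not stand out. TFC6, for a TFIIIC subunit that cooperates with Tfc3 at the B box of the promoter, had the lowest values, -0.45 and -0.59 at 5 min and -0.43 and -0.46 at 15 min. BRF1, the TFIIB-related part of TFIIIB, had -0.13 and -0.19 at 5 min and -0.36 and -0.27 at 15 min. From 30 min on TFC6 arrays lay between -0.21 and 0.09 and BRF1 arrays between -0.30 and -0.08. TFC7 had 0.19 and 0.24 at 5 min and 0.21 and 0.26 at 15 min, slightly above the reference, and between 0.02 and 0.14 after that. TFC3 had means of 0.27 and 0.14 at 5 and 15 min. TFC1, TFC4, TFC8 and BDP1 had means between -0.22 and 0.06 at these times.

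MAF1 encodes the repressor that binds RNA polymerase III under stress and is controlled mainly through phosphorylation. Its mRNA was 0.50 on both arrays at 5 min (1.41-fold higher, limma adjusted p = 1.8e-10, n = 2) and 0.23 and 0.14 at 15 min. From 30 min on its arrays were between 0.03 and 0.10. It was the highest of the 40 members at 5 min but did not pass 1.7-fold.

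On each array the subunits as a group lay below the factors in heat shock. At 5 min the subunit median was -0.84 on array a and -0.79 on array b, against -0.13 and -0.20 for the factors. At 15 min it was -0.93 and -0.92 against -0.11 and -0.13. By 60 min it was -0.24 on both arrays, against -0.00110 and 0.0568. The ranges of single genes overlapped at 15 min, from -2.33 to -0.11 for subunits and from -0.77 to 0.24 for factors. With the curve fitted on external control spots the factor median was 0.04 at 5 min and 0.07 at 30 min, so its sign is not settled, while the subunit median stayed at -0.71 at 5 min and -0.96 at 15 min. Factor probes were dimmer, with mean log2 intensities of 7.05 to 8.89 (median 7.90), than subunit probes, with 7.07 to 10.6 (median 9.34). Of the 7 subunit genes no brighter than the brightest factor, 6 were called lower at a heat shock time. The median intensity of the 7 was 8.19, and 12.3% of all genes were called lower at 1 or more of these times. The only calls of RPC53, RPC25 and RPC17 were lost with external controls, and that of RPC31 with normexp. A role of brightness was not tested.

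**Figure D4:**
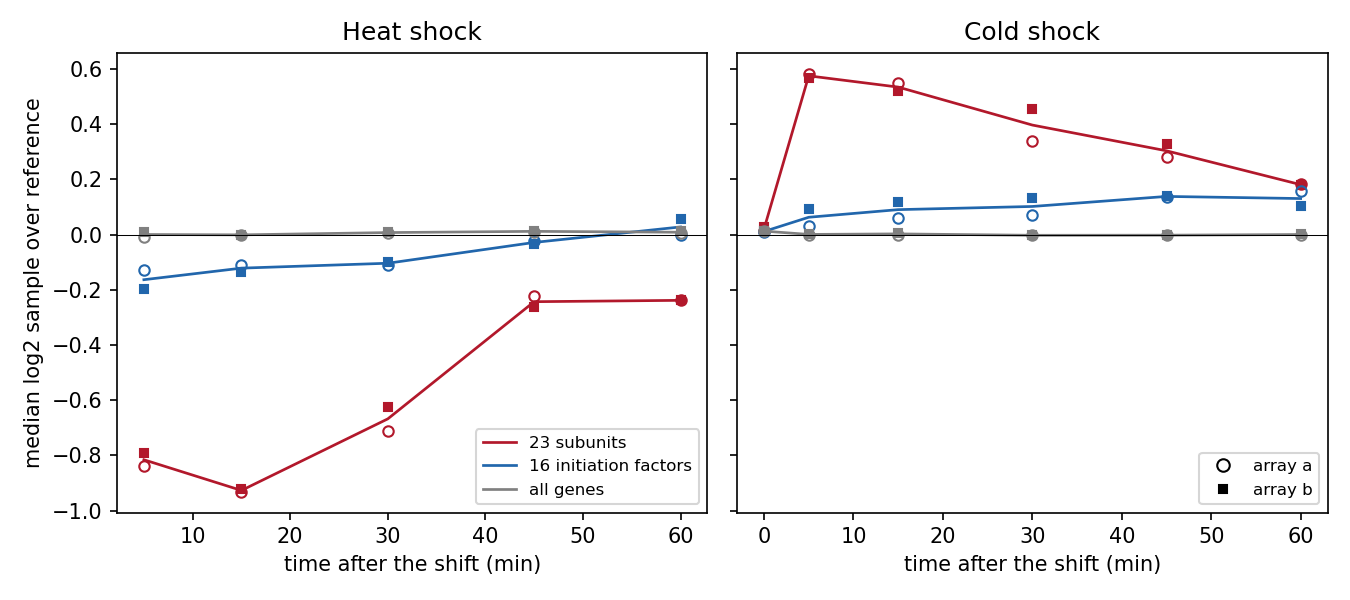
Median log2 ratio of sample over reference for the 23 subunits (red), the 16 initiation factors (blue) and all genes (grey), against time in min after heat shock (left) and cold shock (right). Circles are array a, squares array b and lines the mean of both: the subunit median is -0.93 and -0.92 at 15 min of heat shock and 0.58 and 0.57 at 5 min of cold shock, and the factor median stays between -0.20 and 0.16 on all arrays.

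Most of the difference was gone by 60 min. Against 15 min, 12 members were called higher at 60 min, all of them subunits, where 5.63% of all genes were. The differences ran from 0.77 (RPC11) to 1.80 (RPA135). With no curve, 6 of them were inside the fold threshold: RPA49 and RPA12 (0.66 each), RPC11 (0.61), RPC19 (0.58), RPC40 (0.56) and RPO26 (0.35). RPC11 was inside it also with a single curve for the whole array (0.76), the deposited ratios (0.73) and normexp (0.76), and RPO26 with the single curve (0.57). The subunit median was 0.77 against 0.17 for the factors. RPA190 at 60 min, with -0.55, was the lowest member at that time and 1.46-fold below the reference. RPC37 (0.24), RPB5 (0.18), RPC19 (0.12) and RPC17 (0.05) were above the reference level at 60 min, inside the fold threshold. With external controls the subunit median at 60 min was 0.02 and no member was called lower.

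Cells grown at 37 °C, the 0 min samples of the cold shock series, had polymerase mRNA levels close to those of the reference. No member was called lower, where 1.17% of all genes were, and none higher, with 24 of 40 at an unadjusted limma p under 0.05 in either direction. With a single curve for the whole array, 0 members were called higher too, where 121 of 5315 genes were. So few genes were called that an absence of calls does not set the members apart. The count of 24 has no share of all genes beside it and does not set them apart either. The subunits ranged from -0.22 (RPC31) to 0.42 (RPA14) and the factors from -0.31 (TFC8) to 0.50 (RRN11). RPA190 was 0.00 and -0.01 on its arrays here, beside -2.15 and -2.07 after 15 min at 37 °C. When heat shock was compared with this 37 °C culture instead of the reference, 15, 14, 9, 0 and 0 members were lower at the 5 times, where 6.53%, 8.56%, 4.99%, 0.847% and 0.339% of all genes were. RPA14 was then called at 5 min (-1.03) and at 15 min (-0.88), with 0.42 in the 37 °C culture itself, and RRN11 was called at 5 min (-1.06). RPC19 was called at 15 min (-1.02). Calls lost with this baseline included RPA135 (-0.74), RPC25 (-0.72) and RPC82 (-0.68) at 5 min. At 15 min RPA34 (-0.75), RPC82 (-0.70), RRN3 (-0.63) and RPC31 (-0.55) lost theirs, so similar totals hide changes in which members were called.

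After the shift to 30 °C subunit mRNAs moved the other way. Cells were also pelleted and re-suspended at this shift, so temperature and handling cannot be told apart. Compared with 0 min, 3 members were called higher at 5 min (RPA34 0.86, RPA135 0.82, RPO31 0.78), where 2.94% of all genes were. At 15 min there were 4 (RPA135 1.11, RPO26 0.89, RPO31 0.83, RPA190 0.78), where 2.67% of all genes were. No member was called at 30, 45 or 60 min, where 1.43%, 1.05% and 0.847% of all genes were called higher, with 33, 32 and 23 members at an unadjusted limma p under 0.05 in either direction. These unadjusted counts, too, are given without the share of all genes and do not set the members apart. Over the 5 times in order, the subunit median was 0.54, 0.51, 0.33, 0.26 and 0.15, against 0.08, 0.11, 0.09, 0.09 and 0.03 for the factors. With external controls the factor median was negative, -0.20 at 5 min and -0.19 at 15 min, and the subunit median 0.50 and 0.54. The calls are few and close to the threshold: without array b of 0 min, 1 member was called at 5 min, RPA135 and RPO31 being lost, and without array b of 15 min, 2 were called at 15 min, RPA190 and RPO31 being lost. At 5 min all 3 calls were lost with external controls (RPA34 0.74, RPA135 0.67, RPO31 0.61), RPA49 being called in their place (0.79). RPA135 also lost its 5 min call with a single curve for the whole array (0.71) or no curve (0.71), and RPA34 with the deposited ratios (0.76). At 15 min RPO31 lost its call with no curve (0.74) and external controls (0.62), and RPO26 with no curve (0.75).

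RPA135 had the largest difference from 0 min of the 40 members at 15 min. Its arrays a and b were -0.18 and -0.15 at 0 min, 0.58 and 0.72 at 5 min, 0.81 and 1.08 at 15 min, 0.47 and 0.63 at 30 min, 0.26 and 0.43 at 45 min and 0.22 and 0.35 at 60 min. Every array after cooling was above both 0 min arrays, with the highest at 15 min (2.16-fold over 0 min, limma adjusted p = 7.5e-11). RPA190 went from 0.00 and -0.01 at 0 min to 0.64 and 0.70 at 5 min, 0.63 and 0.92 at 15 min, 0.49 and 0.56 at 30 min, 0.25 and 0.31 at 45 min and 0.08 and 0.23 at 60 min. RPO31, the polymerase III counterpart, went from 0.10 and 0.05 to 0.78 and 0.93, then 0.81 and 1.01, then 0.58 and 0.53 at 30 min, 0.30 and 0.37 at 45 min and 0.10 and 0.16 at 60 min. RPA190, too, was above both 0 min arrays on all 10 arrays after cooling, while RPO31 was back at its 0 min level on array a of 60 min.

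Set against the reference, 4 members were called higher 5 min after cooling (RPC19 0.86, RPO31 0.85, RPA34 0.84, RPC37 0.77), where 4.5% of all genes were. At 15 min there were 5 (RPA135 0.95, RPO26 0.94, RPO31 0.91, RPC19 0.80, RPA190 0.77), where 3.1% of all genes were. The RPC37 call at 5 min and the RPC19 call at 15 min were lost with a single curve for the whole array (0.64 and 0.75), no curve (0.70 each) and external controls (0.57 and 0.68). With external controls the 5 min calls of RPC19 (0.72) and RPA34 (0.69) and the 15 min call of RPO26 (0.73) were lost too. RPO26 also lost it with no curve (0.74), as RPA34 and RPA190 did theirs with the deposited ratios (0.74 and 0.76). RPO26 was 0.95 and 0.94 on its 15 min arrays, beside 0.56 and 0.50 at 5 min. No factor was called after cooling. RRN6 was 0.65 and 0.66 at 5 min, RRN3 0.49 and 0.57, and RRN11 0.73 and 0.78, all short of 1.7-fold. RRN11 was called at 5 min with a single curve for the whole array (0.84), no curve (0.89) and external controls (0.82). The same 3 alternatives called it higher at 15 min after cooling too (0.78, 0.80 and 0.79, against 0.66 as reported). TFC3, for the TFIIIC subunit that recognises the B box, was the lowest member at 5 min, -0.50 and -0.51. MAF1 lay between -0.06 and 0.21 over all 12 cold shock arrays.

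Across the 40 members, the difference of 15 min after cooling from 0 min and the ratio after 15 min of heat shock had a Pearson correlation of -0.75 (Spearman -0.72). The same was -0.69 over all 5315 genes (Spearman -0.61), and -0.57 within the 23 subunits. Genes do not replicate one another, so these correlations stand as a description without a test.

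Of the other genes of the pathway, 42 of 49 listed were on the arrays by name. Among 14 further genes of polymerase I and III transcription, 3 were called lower at 5 min, against 6.02% of all genes, and 2 at 15 min, against 9.33% (median -0.23 and -0.24). POL5, for a nucleolar protein needed for rRNA synthesis, had -0.89 and -0.84 at 5 min, -1.49 and -1.39 at 15 min and -1.03 and -1.05 at 30 min and was called at all of these. RAT1, the nuclear exonuclease that acts in polymerase I termination, was called at 5 and 15 min (-0.87 and -1.22). RPC10, for the remaining subunit shared by all nuclear polymerases, was called at 5 min (-1.19) and was -0.74 at 15 min. Among 5 genes for assembly and nuclear import of polymerases, BUD27, which acts with the prefoldin-like Uri family, was the 1 gene called lower at 5 min (-0.92), against 6.02% of all genes. It was called higher 5 and 15 min after cooling (1.00 and 0.97), against 4.5% and 3.1%.

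Among 16 regulator genes, 2 were called lower at 5 min of heat shock (6.02% of all genes) and 1 at 15 min (9.33%), and 1 was called higher at each time (6.87% and 8.92%). The product of TOD6, like the related Dot6, binds the PAC element of ribosome biogenesis genes and represses them. TOD6 had -1.68 and -1.57 at 5 min and -0.88 and -0.92 at 15 min of heat shock, then 0.88 and 0.89, 0.93 and 1.04 and 0.88 and 0.73 at 5, 15 and 30 min after cooling. It was called lower in the first 2 heat shock times and higher at these 3 cold shock times, so the mRNA of this repressor moved in the same direction as most subunit mRNAs. DOT6 went the other way at 5 min of heat shock (0.40), was at -0.14 at 15 min, and was not called. KNS1, for the kinase that phosphorylates Rpc53, was called higher at 5 min (0.87 and 0.96) and 15 min (0.86 and 0.77). IFH1, a coactivator of ribosomal protein genes, was called lower at 5 min (-0.77) and higher 5, 15 and 30 min after cooling (0.94, 0.85 and 0.77). At 30 min after cooling 1.66% of all genes were called higher against the reference, and TOD6 and IFH1 were 2 of 16 regulators. The repressor gene STB3 (0.42 at 5 min, 0.41 at 15 min) and the activator gene SFP1 (-0.04 and -0.10) were not called.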

How the data were processed

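The submitters scanned 22 two-colour oligonucleotide arrays and deposited spot intensities per array, together with normalized log2 ratios that the authors made with print-tip loess, a correction for gene-specific dye bias and limma 2.12.0. A further deposited table of the authors' own fold changes and p-values was not used. Here Cy5 and Cy3 spot means were normalized from the intensities with print-tip loess (span 0.4, 48 blocks, controls and spots over 32768 at weight 0) without background subtraction, and 2 spots a probe were averaged. Limma 3.58.1 (R 4.3.3) fitted 1 mean per condition and a dye term, which equals the array letter, with adjustment over 5326 probes. The test had 10 residual degrees of freedom, and with 2 arrays a condition their number limits the precision. The script was tested on simulated data.

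Probes of the brightest signal stood for a gene. Updated symbols were given to 54 probes, and 1062 of 6388 gene probes had no symbol. The submitters' design text calls arrays a and b separate cultures, while the methods describe 2 biological replicates, each also profiled in dye swap. P-values therefore measure the spread between arrays, which may be technical. Deposited log2 ratios of 3 arrays had the opposite sign to the intensities and were turned where used as an alternative. The members and lists were chosen with earlier results of these data known. Values per array are given for the 3 members of each class with the largest ratio at 15 min of heat shock, for MAF1 and, chosen after their values were seen, for some others, with part of the later times as ranges. An untreated time 0 of heat shock and a search of promoter motifs were not analysed here. Alternatives were other normalizations (1 curve per array, no curve, a curve on 14 external control probes), the deposited ratios, normexp background correction (offset 50), no dye term, other thresholds, other probe rules, the 37 °C culture as baseline and each array left out.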

Additional observations from a re-analysis of the deposited data

Results flagged for a closer look

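For 12 subunit genes the change at 60 min of heat shock differed from that at 15 min past both thresholds of limma's test, 6 of them also without any within-array curve (not RPA49, RPA12, RPC11, RPC19, RPC40 and RPO26). With a single curve for the whole array RPC11 (0.76) and RPO26 (0.57) were inside the fold threshold. RPC11 was inside it also with the deposited ratios (0.73) and with normexp (0.76). The log2 difference was 1.80 for RPA135, 1.56 for RPA190, 1.12 for RPA43, 1.12 for RPA49 and 0.94 for RPA12 among the genes specific to polymerase I. It was 1.03 for RPC34, 0.91 for RPO31, 0.91 for RET1 and 0.77 for RPC11 among those specific to polymerase III, and 0.88 for RPC40, 0.88 for RPC19 and 0.82 for RPO26 among the shared ones. The adjusted p was 4.3e-09 for RPC11 and smaller for the rest, with n = 2 arrays at each time. All these genes but RPC19 were still below the reference at 60 min, though none was called lower then. With external controls RET1 (0.02), RPC34 (0.08) and RPC11 (0.05) also lay above the reference at 60 min.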

How the results depend on the processing

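For 14 counts of called members, 161 values under the alternatives lay within 1.5 times of the reported count and 28 did not. For 22 medians, 119 values under the alternatives were labelled the same and 45 were labelled moved. With the adjusted p alone and no fold threshold, 33, 33, 30, 24 and 22 members were lower at 5, 15, 30, 45 and 60 min of heat shock and 9 in the 37 °C culture, and 29, 31, 30, 29 and 19 were higher at 5, 15, 30, 45 and 60 min of cold shock against 0 min. On the same rule 32 were higher at 60 against 15 min of heat shock, and 11 lower and 11 higher at 15 against 5 min. With a threshold of 2-fold, 7 were lower at 5 min and 2 at 30 min of heat shock, 5 were higher at 60 against 15 min, 0 at 15 against 5 min, and 0 at 5 min and 1 at 15 min of cold shock. The shares of all genes without a fold threshold or at 2-fold are not given here. These counts therefore show how the totals depend on the threshold and do not set the members apart. With external controls 1 member was higher at 5 min of cold shock and 0 at 15 against 5 min of heat shock, and with normexp also 0 at the latter. Without any curve, 2 were higher at 15 min of cold shock and 6 at 60 against 15 min of heat shock. Leaving out 1 array at a time gave 14 to 16 members lower at 5 min, 15 to 15 at 15 min, 8 to 10 at 30 min and 0 to 1 at 45 min of heat shock. Calls lost were RPC25 at 5 min, RPA34, RPC31 and RRN3 at 15 min and RPA43 at 30 min, and RPA190 was gained at 45 min without array a. For cold shock it gave 1 to 4 members higher at 5 min and 2 to 4 at 15 min, and 11 to 12 at 60 against 15 min of heat shock, RPC11 being lost.

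Without the replicate block, that is without the dye term, the counts were the same as with it: 15, 16, 9, 0 and 0 lower in heat shock, 0 in the 37 °C culture, 3, 4, 0, 0 and 0 higher in cold shock, 12 higher at 60 against 15 min, and 2 lower and 1 higher at 15 against 5 min. The letters a and b are the dye orientation in the labels, and whether arrays of 1 letter share a culture was not tested. No called value of the 18 named genes tracked was reversed in any alternative.

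External controls moved the median of all genes by 0.21 at 45 min, 0.19 at 60 min, 0.13 in the 37 °C culture, 0.10 at 60 min of cold shock, 0.25 at 60 against 15 min and -0.15 at 15 against 5 min, and by -0.16, -0.13 and -0.15 at 5, 15 and 30 min of cold shock against 0 min. All genes called higher and lower then numbered 411 and 735 at 15 min of heat shock in place of 474 and 496, 756 and 126 at 60 against 15 min in place of 299 and 271 (198 and 311 without any curve), 44 and 352 at 15 against 5 min in place of 113 and 144 (90 and 209 without any curve), and 124 and 260 at 5 min of cold shock against 0 min in place of 156 and 170. Against the reference they numbered 193 and 231 at 5 min of cold shock in place of 239 and 170, and 58 and 53 at 60 min in place of 35 and 97. Without any curve they numbered 222 and 268 at 45 min of heat shock in place of 219 and 97, and 173 and 258 at 60 min in place of 198 and 75. At 60 min of cold shock against 0 min they numbered 45 and 185, against 257 and 205 with external controls and 106 and 192 without any curve. The cause was not tested. For dim probes, such as those of RPC25 and RRN7, signal over background limits what can be seen.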
